A study of Mus musculus with 31 samples.

Results

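A set of 9 genes used as markers of microglia were followed through ribosome profiling and mRNA sequencing of mouse cortex: Cx3cr1, P2ry12, Tmem119, Csf1r, C1qa, C1qb, C1qc, Trem2 and Aif1. They were taken by name from the 20436 gene symbols of the deposited count tables, and all 9 were present. The mice were wild-type (WT), deficient in Fmr1 (labelled FXS), deficient in Rps6kb1 (labelled S6K1) or deficient in both genes (DKO), and were aged P29 to P34. The mRNA libraries (RNA in the labels) numbered 4 per genotype. The ribosome footprint libraries (RPF in the labels), which hold the mRNA fragments that ribosomes protect from nuclease, numbered 4 for WT, 5 for FXS, 3 for S6K1 and 3 for DKO. No treatment, strain, sex or driver of the deletions is given in the labels, and all groups are whole dissected cortex. The labels do not say whether libraries came from separate or pooled animals, or whether footprints and mRNA came from the same mice, so p-values measure only the spread between these libraries.

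Microglia are the resident macrophages of the brain, which survey the tissue, clear debris and take part in the removal of synapses. They depend on CSF1R, the receptor for the growth factors CSF1 and IL-34, and exchange signals with neurons through CX3CR1, the receptor for the neuronal chemokine fractalkine. In the cortex C1q, the starting component of the classical complement pathway, is made mostly by microglia. Fmr1 encodes FMRP, an RNA-binding protein that regulates translation and is lost in fragile X syndrome, and Rps6kb1 encodes S6K1, a kinase that acts on the translation machinery. The comparison of genotypes asks whether loss of either regulator, or of both, altered the mRNA or the ribosome occupancy of the microglial genes.

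Library totals ran from 12.1 to 17.3 M counts for mRNA and from 16.6 to 34.9 M counts for footprints. The member genes had between 62 and 2897 counts per mRNA library and between 19 and 1439 per footprint library, and all 9 passed the filter on low counts in both assays (14215 genes tested for mRNA, 13953 for footprints). Levels are given as CPM, counts scaled to a common effective library total of 1e+06, which is not corrected for gene length, so levels of different genes are not ranked. Fmr1 mRNA lay at 10.6 to 22.1 CPM in the 8 FXS and DKO libraries and at 55.6 to 82.6 CPM in the 8 WT and S6K1 libraries. Rps6kb1 footprints lay at 7.62 to 12.8 CPM in S6K1 and DKO and at 26.1 to 36.3 CPM in WT and FXS. Fmr1 in the footprint libraries lay at 7.03 to 12.8 CPM in FXS and DKO and at 104 to 159 CPM in WT and S6K1. Rps6kb1 mRNA overlapped over all batches, with 28.2 to 43.7 CPM in S6K1 and DKO and 39.5 to 55.5 CPM in WT and FXS, and within each of the 4 mRNA batches the S6K1 and DKO libraries lay below the WT and FXS libraries. The mRNA libraries were made in 4 batches (5 to 8) that each hold every genotype once. The footprint libraries were made in 4 other batches (1 to 4), of which batch 1 holds only S6K1 and DKO.

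The 3 C1q genes lie side by side on chromosome 4 of the mouse genome (GRCm38.p6), C1qb at chr4:136880126-136886200, C1qc at chr4:136889801-136892936 and C1qa at chr4:136895916-136898844. The remaining members lie on chromosomes 3 (P2ry12), 5 (Tmem119), 9 (Cx3cr1), 17 (Trem2 and Aif1) and 18 (Csf1r). RefSeq promoter sequences were matched for 6 of the 9 members, Cx3cr1, P2ry12, C1qb, C1qc, Trem2 and Aif1. The 250 bases before the start site are shown for C1qb and C1qc, whose mRNA levels moved together below, and for Aif1, whose level did not move with them. Capitals mark GAGGAA on either strand (TTCCTC when it lies on the other strand), the core bound by PU.1, the transcription factor of macrophages and microglia encoded by Spi1. The sequences are on the minus strand at chr4:136886201-136886450 (C1qb), chr4:136892915-136893164 (C1qc) and chr17:35176053-35176302 (Aif1), written 5′ to 3′ in the direction of the gene.
C1qb: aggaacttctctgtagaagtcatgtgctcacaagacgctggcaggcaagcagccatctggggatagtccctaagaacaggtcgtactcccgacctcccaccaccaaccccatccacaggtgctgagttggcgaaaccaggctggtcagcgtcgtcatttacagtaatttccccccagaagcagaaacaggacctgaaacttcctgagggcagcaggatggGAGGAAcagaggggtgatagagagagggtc
C1qc: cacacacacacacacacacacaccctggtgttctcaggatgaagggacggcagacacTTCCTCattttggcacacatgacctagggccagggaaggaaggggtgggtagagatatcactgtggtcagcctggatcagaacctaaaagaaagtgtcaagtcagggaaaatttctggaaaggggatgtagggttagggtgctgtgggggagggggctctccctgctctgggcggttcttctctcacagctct
Aif1: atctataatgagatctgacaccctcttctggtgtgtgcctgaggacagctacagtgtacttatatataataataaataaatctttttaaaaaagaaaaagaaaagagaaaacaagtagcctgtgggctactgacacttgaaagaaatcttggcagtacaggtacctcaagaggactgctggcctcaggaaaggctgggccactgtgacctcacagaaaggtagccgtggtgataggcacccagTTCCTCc
Distances are counted from the start site of each promoter sequence. The core starts 30 bases before that site in C1qb. On the other strand it starts 193 bases before the site in C1qc and 7 bases before it in Aif1. For C1qc and Aif1 this site lies inside the listed gene span, which ends at chr4:136892936 and chr17:35176083. The Aif1 core thus lies within the gene span. Trem2 holds the core too, on the other strand, 40 bases before the start, so 4 of the 6 matched members have it in this window. These letters are found in 23.3% of the 32851 RefSeq promoters of the same length. A match to them is a description of sequence and shows no binding.

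The largest differences among the 9 genes lay between mRNA batches. In the 4 libraries of batch 5, mRNA of 8 of the 9 members was lower than in batches 6 to 8, by 2.26 times (Tmem119) to 3.93 times (Csf1r). Aif1 was the exception. Summed over the 9 genes, the mRNA level was 120 to 162 CPM in batch 5 (n = 4) and 380 to 500 CPM in batches 6 to 8 (n = 12). Across all genes tested 46.3% differed between batch 5 and the other batches at an adjusted p under 0.05 (edgeR quasi-likelihood test, Benjamini-Hochberg adjustment, used for every call below), and 24.4% were lower in batch 5. For the 8 members every library of batch 5 lay below every library of batches 6 to 8, a pattern shown by 13.7% of all genes tested. In whole tissue, fewer microglia and less RNA per microglial cell cannot be told apart.

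**Figure D1:**
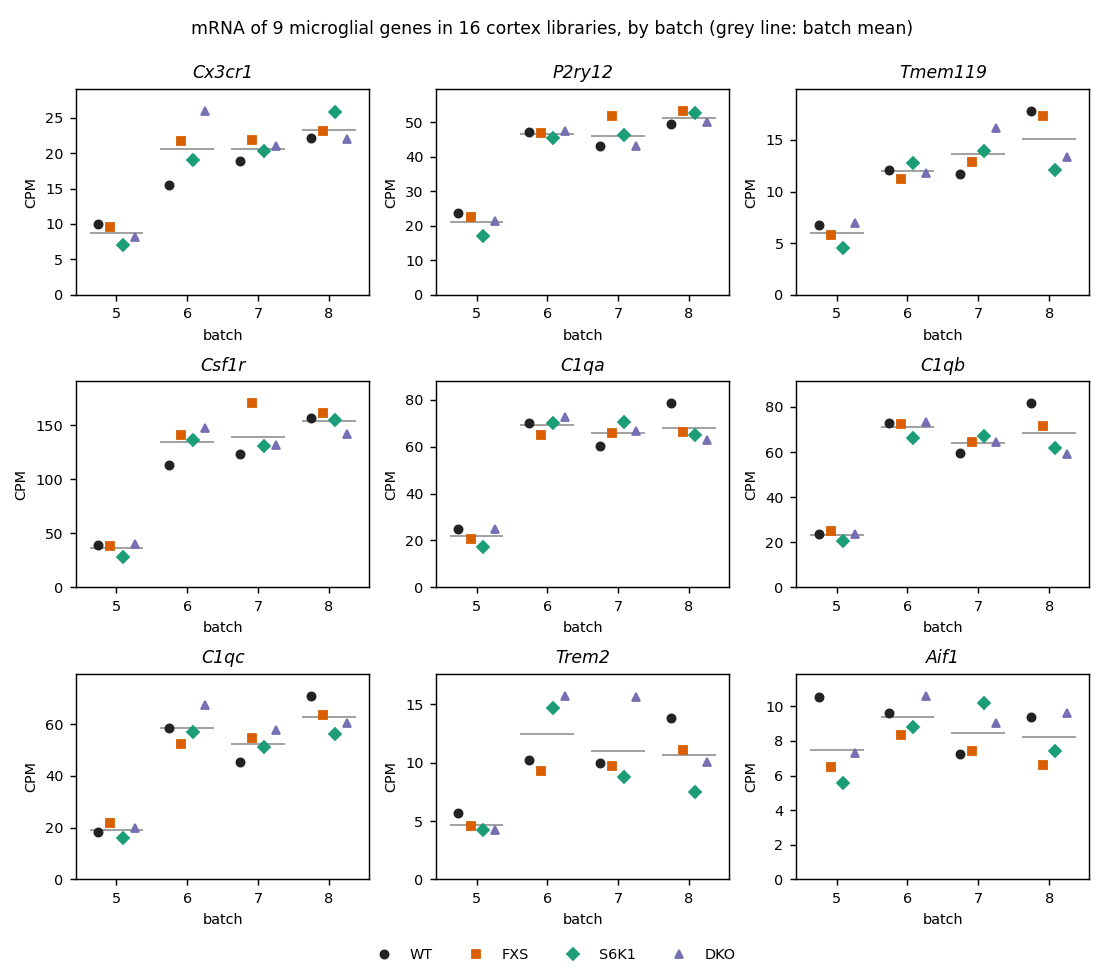
mRNA level (CPM, vertical axis) of each of the 9 microglial genes in the 16 mRNA libraries, by batch (horizontal axis). Each point is a library, marked by genotype, and the grey line is the batch mean. In 8 panels the 4 points of batch 5 lie below all others, and in the Aif1 panel they overlap.

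Csf1r, the receptor on which microglial survival depends, had 39.0, 38.1, 28.1 and 39.6 CPM in the WT, FXS, S6K1 and DKO libraries of batch 5. In batches 6 to 8 its mRNA ranged from 113 to 170 CPM with a median of 142. All genotypes were low in batch 5, and its log2 fold change against the other batches was -1.98 ± 0.0893 (SE; adjusted p = 4.19e-13). Cx3cr1, the fractalkine receptor, had 9.995, 9.53, 7.10 and 8.20 CPM in the same 4 libraries, against 15.5 to 25.9 CPM (median 21.8) in the other batches. Its log2 fold change was -1.29 ± 0.112 (adjusted p = 1.57e-09). P2ry12, the ADP receptor that guides microglial processes to injury, had 23.8, 22.7, 17.04 and 21.4 CPM in WT, FXS, S6K1 and DKO of batch 5. Its mRNA in batches 6 to 8 lay between 43.1 and 53.2 CPM with a median of 47.3, and the log2 fold change was -1.18 ± 0.0762 (adjusted p = 1.31e-11). Trem2, a lipid-sensing receptor of microglia that signals through TYROBP, had 5.68 CPM in WT, 4.55 in FXS, and 4.19 in both S6K1 and DKO in batch 5. The other batches gave 7.48 to 15.7 CPM, and the log2 fold change was -1.28 ± 0.176 (adjusted p = 5.38e-06). Tmem119, a membrane protein used to tell microglia from other macrophages, had 6.78, 5.77, 4.53 and 6.93 CPM in WT, FXS, S6K1 and DKO of batch 5 and 11.2 to 17.8 CPM elsewhere. Its log2 fold change was -1.18 ± 0.128 (adjusted p = 5.93e-08). The mRNAs of these 5 membrane proteins thus had separate ranges in batch 5 and in batches 6 to 8. The batch 5 library of each genotype lay below every library of batches 6 to 8.

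The mRNAs of the 3 C1q chains, secreted proteins that assemble into one complex, had log2 fold changes close to one another. C1qa mRNA in the WT, FXS, S6K1 and DKO libraries of batch 5 was 24.6, 20.7, 17.04 and 24.8 CPM, against 60.3 to 78.5 CPM (median 66.4) in batches 6 to 8. C1qb had 23.7, 25.0, 20.4 and 23.6 CPM in WT, FXS, S6K1 and DKO of batch 5, against 59.1 to 81.5 CPM (median 66.7). C1qc had 18.3, 21.7, 16.02 and 19.9 CPM in the same order, against 45.6 to 71.0 CPM (median 57.3). The groups did not overlap for any of the 3 chains. The log2 fold changes were -1.64 ± 0.0850 for C1qa (adjusted p = 5.36e-13), -1.55 ± 0.0769 for C1qb (adjusted p = 2.74e-13) and -1.61 ± 0.0849 for C1qc (adjusted p = 5.37e-13). In fold terms the mRNAs of the 3 chains were 2.92 to 3.12 times lower in batch 5.

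Aif1, which encodes IBA1, the cytosolic calcium-binding protein commonly stained to show microglia, had 10.5, 6.49, 5.54 and 7.29 CPM in the WT, FXS, S6K1 and DKO libraries of batch 5. The range in batches 6 to 8 was 6.64 to 10.6 CPM with a median of 8.93. The WT library of batch 5 lay near the top of that range and the FXS and S6K1 libraries just below it. The log2 fold change was -0.23 ± 0.133 with an adjusted p of 0.166, and its 95% interval, -0.50 to 0.05, did not reach the values of the other 8 members. Without WT replicate 1 it was -0.42 (adjusted p = 0.0212). The S6K1 library of batch 5 had the lowest mRNA value of all 16 libraries for each of the 9 members. Without this library, the 8 members lower in batch 5 still passed the test, as under each of the 20 alternative settings.

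Total counts of the batch 5 libraries, 13.4 to 16.8 M, lay within the range of the other batches, 12.1 to 17.3 M. Their TMM scaling factors, which adjust a library's total for its composition, were 1.05 to 1.09, against 0.956 to 0.996 in batches 6 to 8. The part of this composition difference in the values above was not tested.

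No member was called for genotype in mRNA in any of 6 comparisons (each mutant against WT, DKO against FXS, DKO against S6K1, and the interaction of both deletions). The shares of all genes called were 0.155% for FXS against WT, 0.0211% for S6K1 against WT, 5.23% for DKO against WT, 0.0281% for DKO against FXS, 0.387% for DKO against S6K1 and 0% for the interaction. At an unadjusted p under 0.05, edgeR listed 2 members for FXS against WT, 0 for S6K1 against WT, 0 for DKO against WT, and 1 for each of the remaining 3 comparisons. DESeq2 and limma voom also called 0 of 9 members in each. For DKO against WT, where the most genes of the transcriptome changed, the 9 log2 fold changes had a median of 0.00 and ran from -0.10 (C1qb) to 0.17 (Cx3cr1). Their 95% intervals together spanned -0.36 to 0.53, and each included 0. For FXS against WT the median was -0.01, from -0.37 (Aif1) to 0.20 (Csf1r), and for S6K1 against WT it was -0.12, from -0.23 to 0.06. Within batch 5 the S6K1 library lay below the WT library for 9 of 9 members, and without the batch 5 libraries the median for S6K1 was -0.02, with 5 of 9 members negative. Without those libraries the median was -0.02 for FXS and 0.09 for DKO. The median over all genes tested was -0.01 for FXS, 0.00 for S6K1 and 0.00 for DKO. The standard errors were largest for Trem2, Aif1 and Tmem119, the members with the lowest counts, and a difference within their intervals could not be told from none.

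The mean Csf1r mRNA over batches 6 to 8 was 131 ± 22.8, 158 ± 14.7, 141 ± 12.9 and 141 ± 8.31 CPM for WT, FXS, S6K1 and DKO (SD, n = 3 each). With all 4 batches the same gene had 108 ± 49.7 CPM for WT and 115 ± 51.0 CPM for DKO (SD, n = 4 each), so the spread within a genotype was larger with batch 5 than without it. The ranges of neighbours in the order FXS, DKO, S6K1 and WT overlapped, although the gap between the FXS and DKO means was larger than the SD of either. C1qa averaged 69.7 ± 9.12, 65.7 ± 0.708, 68.6 ± 3.15 and 67.4 ± 4.90 CPM in that order. P2ry12 averaged 46.6 ± 3.25, 50.7 ± 3.35, 48.2 ± 4.02 and 46.9 ± 3.48 CPM. Cx3cr1 averaged 18.8 ± 3.26, 22.2 ± 0.797, 21.7 ± 3.59 and 23.0 ± 2.58 CPM in that order. All of these genotype ranges overlapped WT, and so did those of the other 5 members, while 14.5%, 9.06% and 22.7% of all genes had separate ranges in these batches for FXS, S6K1 and DKO against WT. C1qb averaged 71.3 ± 11.1, 69.4 ± 4.27, 65.1 ± 2.79 and 65.5 ± 7.15 CPM, and C1qc 58.3 ± 12.7, 56.8 ± 6.03, 54.8 ± 3.22 and 61.8 ± 4.92 CPM. Tmem119 averaged 13.9 ± 3.39, 13.8 ± 3.13, 12.9 ± 0.951 and 13.8 ± 2.17 CPM. Trem2 averaged 11.4 ± 2.16, 10.03 ± 0.919, 10.3 ± 3.84 and 13.8 ± 3.25 CPM, and Aif1 8.74 ± 1.30, 7.47 ± 0.866, 8.80 ± 1.38 and 9.74 ± 0.796 CPM. Over all batches no pair among WT and each mutant, or among DKO and each single mutant, had separate ranges for any member. Of all genes, 3.34% had separate ranges for FXS and WT, 1.60% for S6K1 and WT, 6.15% for DKO and WT, 2.78% for DKO and FXS and 3.03% for DKO and S6K1. In batches 6 to 8, with 3 libraries a genotype, DKO lay above FXS for Aif1 and above S6K1 for C1qc, where 17.3% and 16.6% of all genes had separate ranges for those pairs.

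Within batches, each mutant library was set against the WT library of the same batch. How many of all genes kept one sign in all 4 batches was not counted, so this comparison has no background. Trem2 in FXS was the only pairing of a member and a mutant with the same sign in all 4 batches. Its log2 differences were -0.32 in batch 5, -0.14 in batch 6, -0.03 in batch 7 and -0.33 in batch 8. The fitted log2 fold change was -0.21, with an interval from -0.63 to 0.20. Csf1r in FXS was higher than WT in batches 6, 7 and 8 (0.32, 0.46 and 0.04 on the log2 scale) and at -0.04 in batch 5, and its fitted 0.20 ± 0.0959 had an adjusted p of 0.387.

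**Figure D2:**
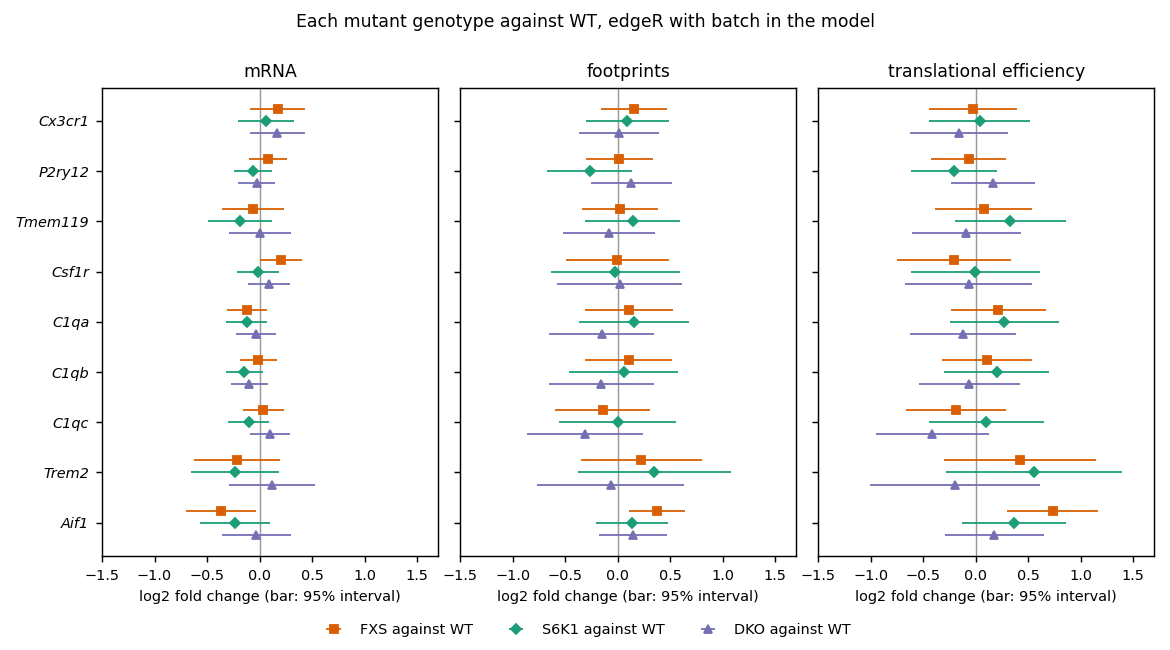
Log2 fold change of each of the 9 genes (vertical axis) for FXS, S6K1 and DKO against WT in mRNA, footprints and translational efficiency. Points are edgeR estimates with batch in the model and bars are 95% intervals. No estimate passed the test after adjustment, and the farthest from 0 is Aif1 translational efficiency in FXS at 0.73.

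Footprints of the 9 genes were likewise not called for genotype in any of the 6 comparisons. Separate ranges were found for 0 members in each of 5 pairs, and for 1.74% of all genes for FXS and WT, 9.91% for S6K1 and WT, 16.3% for DKO and WT, 3.73% for DKO and FXS and 8.45% for DKO and S6K1. The shares of all genes called were 0.165% for FXS, 0.00717% for S6K1 and 0.366% for DKO against WT, 0.0143% for DKO against FXS, 0.00717% for DKO against S6K1 and 0% for the interaction. At an unadjusted p under 0.05 there was 1 member for FXS against WT (Aif1) and 1 for DKO against S6K1 (P2ry12), with 0 in the other comparisons, and DESeq2 and limma voom called 0. The median log2 fold change of the members was 0.10 in FXS, 0.09 in S6K1 and -0.07 in DKO. The 95% intervals for DKO against WT spanned -0.86 to 0.63, wider than for mRNA, and all 9 included 0.

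Csf1r footprints had 20.7, 39.7, 19.7 and 27.6 CPM in the 4 WT libraries, 26.1, 39.1, 36.7, 22.7 and 16.9 in the 5 FXS libraries, 28.4, 38.9 and 28.2 in S6K1, and 30.7, 42.1 and 17.4 in DKO. High and low libraries occurred in every genotype except S6K1, and all ranges overlapped. P2ry12 had 9.35, 14.3, 8.27 and 12.2 CPM in WT, 10.2, 11.3, 18.4, 8.51 and 8.49 in FXS, 16.7, 10.9 and 11.6 in S6K1, and 24.3, 18.6 and 8.502 in DKO. Its highest values, 24.3 and 18.6, were DKO libraries of batches 1 and 3, and the DKO library of batch 4 was among the lowest. The fitted DKO against WT log2 fold change of P2ry12, with batch in the model, was 0.13, with an interval from -0.26 to 0.52. Mean footprint levels of the C1q genes over the libraries of a genotype were, for WT (n = 4) and DKO (n = 3), 9.85 ± 3.47 and 9.39 ± 2.36 CPM (SD) for C1qa, 8.82 ± 2.42 and 7.73 ± 2.31 CPM for C1qb, and 7.49 ± 1.69 and 5.36 ± 0.881 CPM for C1qc. The WT and DKO ranges of all 3 overlapped. Trem2, with as few as 19 footprint counts in a library, averaged 2.23 ± 1.30, 2.56 ± 0.296, 2.85 ± 0.795 and 1.97 ± 0.631 CPM (SD) for WT, FXS, S6K1 and DKO, with 4, 5, 3 and 3 libraries. Tmem119 averaged 2.83 ± 0.657, 3.07 ± 0.806, 3.38 ± 0.695 and 2.53 ± 0.271 CPM in the same order, and Cx3cr1 7.57 ± 2.05, 8.62 ± 2.30, 8.90 ± 1.23 and 7.83 ± 2.43 CPM.

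**Figure D3:**
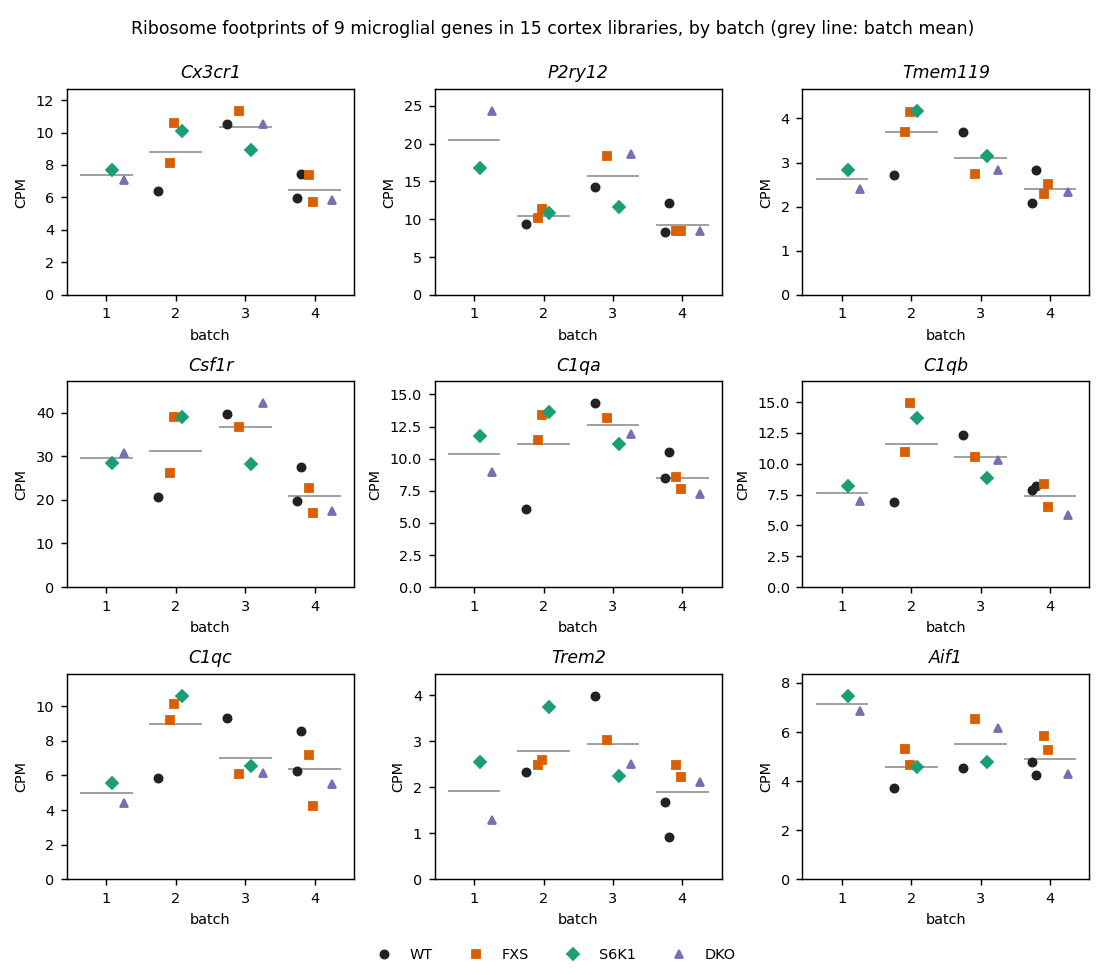
Footprint level (CPM, vertical axis) of the 9 genes in the 15 footprint libraries, by batch (horizontal axis), with genotype by marker and the batch mean as a grey line. P2ry12 averages 20.5 CPM in batch 1 and 9.19 CPM in batch 4, and batch 1 holds 1 S6K1 and 1 DKO library.

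Footprint levels differed between batches for 5 of the 9 members (P2ry12, Cx3cr1, Aif1, Csf1r and C1qb), at a background of 53.9% of all genes tested, a share near that of the members. P2ry12 averaged 20.5 CPM ± 5.36 (SD, n = 2) in batch 1, 10.4 ± 0.861 (n = 4) in batch 2, 15.7 ± 3.38 (n = 4) in batch 3 and 9.19 ± 1.67 (n = 5) in batch 4, with an adjusted p of 0.000805 for any difference. Cx3cr1 was highest in batch 3 at 10.3 CPM ± 1.00 (n = 4) and lowest in batch 4 at 6.48 ± 0.856 (n = 5; adjusted p = 0.00782). Aif1 was highest in batch 1 at 7.16 CPM ± 0.448 (n = 2) and lowest in batch 2 at 4.57 ± 0.638 (n = 4; adjusted p = 0.0184). P2ry12 and Aif1 thus had their highest batch mean in batch 1, while Csf1r was highest in batch 3 at 36.7 CPM ± 6.07 and C1qb in batch 2 at 11.6 CPM ± 3.57. The adjusted p was 0.0450 for Csf1r and 0.0468 for C1qb, and the number of members called ran from 2 to 8 when single libraries were left out. It was 8 without WT replicate 1, 2 without S6K1 replicate 1 or without DKO replicate 3, and 3 without each of DKO replicates 1 and 2, FXS replicates 2, 3, 4 and 5 and WT replicate 3. The mRNA batches gave 8 of 9 members for any difference, at a background of 40.5%.

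Translational efficiency, the footprint change relative to the mRNA change in one model of both assays (13654 genes), was called for 0 of the 9 members in all 6 comparisons. The shares of all genes called were 0.0952% for FXS, 0.0293% for S6K1 and 4.85% for DKO against WT, 0.0146% for DKO against FXS, 0.00732% for DKO against S6K1 and 0% for the interaction. At an unadjusted p under 0.05 edgeR listed 1 member each for FXS against WT and DKO against FXS (Aif1 in both), 2 for the interaction (Aif1 and Trem2) and 0 in the other 3, and DESeq2 and limma voom called 0. For DKO against WT the members had a median of -0.09, from -0.41 (C1qc) to 0.18 (Aif1), beside -0.02 for all genes tested, and all 9 intervals included 0.

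Aif1 gave the lowest unadjusted p of the 9 genes in the FXS comparison of each assay, and in opposite directions. Its mRNA in FXS was 6.49, 8.37, 7.40 and 6.64 CPM, against 10.5, 9.62, 7.25 and 9.36 CPM in WT. Its footprints in FXS were 5.29, 4.65, 6.53, 5.83 and 5.26 CPM, against 3.74, 4.55, 4.78 and 4.25 CPM in WT. FXS libraries were mostly low in mRNA and mostly high in footprints, with overlap between the genotypes in both assays. The log2 fold changes were -0.37 ± 0.162 for mRNA (adjusted p = 0.344), 0.37 ± 0.125 for footprints (adjusted p = 0.313) and 0.73 ± 0.210 for translational efficiency (adjusted p = 0.163). Over 23 alternatives the mRNA value ran from -0.51 to -0.17, and over 21 the footprint value ran from 0.32 to 0.44. Without the batch 5 libraries the lowest mRNA value of any member in FXS was -0.22. The mean footprint difference was 0.41 in batch 2, 0.52 in batch 3 and 0.30 in batch 4 on the log2 scale, and the mRNA difference was -0.70, -0.20, 0.03 and -0.50 in batches 5 to 8. In DKO against WT, the Aif1 translational efficiency was 0.18, with an interval from -0.30 to 0.65. None of these values passed the test under any alternative setting.

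The ratio of footprint CPM to mRNA CPM in WT was below the median of all genes (0.782) for each of the 9 members, with mRNA taken from batches 6 to 8. It was lowest for C1qb (0.124), C1qc (0.128) and C1qa (0.141), which stood at the 2.59th, 2.77th and 3.33rd percentile of all genes tested in both assays. Trem2 (0.196), Tmem119 (0.204), Csf1r (0.205) and P2ry12 (0.236) followed, between the 6.21st and the 8.96th percentile. Cx3cr1 (0.402) and Aif1 (0.495) stood at the 22.4th and 29.9th percentile. The order was similar in the mutants, with the 3 C1q genes lowest in FXS, S6K1 and DKO at 0.0867 to 0.178. Taken over the batch 5 mRNA library alone, the WT ratio was 0.372 to 0.410 for the C1q genes, 0.690 for Csf1r, 0.758 for Cx3cr1 and 0.411 for Aif1. Both WT ratios use the same footprint mean, so the shift restates the mRNA batch difference. The ratio rose for the C1q genes, Csf1r and Cx3cr1, while for Aif1 it fell from 0.495. With batch 5 mRNA the rank changed too, and Csf1r in S6K1 went from the 8.03rd percentile in batches 6 to 8 to the 65.3rd. In FXS, Cx3cr1 (0.904) and Aif1 (0.850) then lay above the median of all genes (0.828). In S6K1 Cx3cr1 (1.25), Csf1r (1.13) and Aif1 (1.01) did (median 0.844), and in DKO Cx3cr1 (0.955, median 0.820). In WT no member did. The 2 assays were scaled separately and counts at the same gene length enter both. The ratio thus ranks genes only for the libraries chosen and has no absolute meaning.

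**Figure D4:**
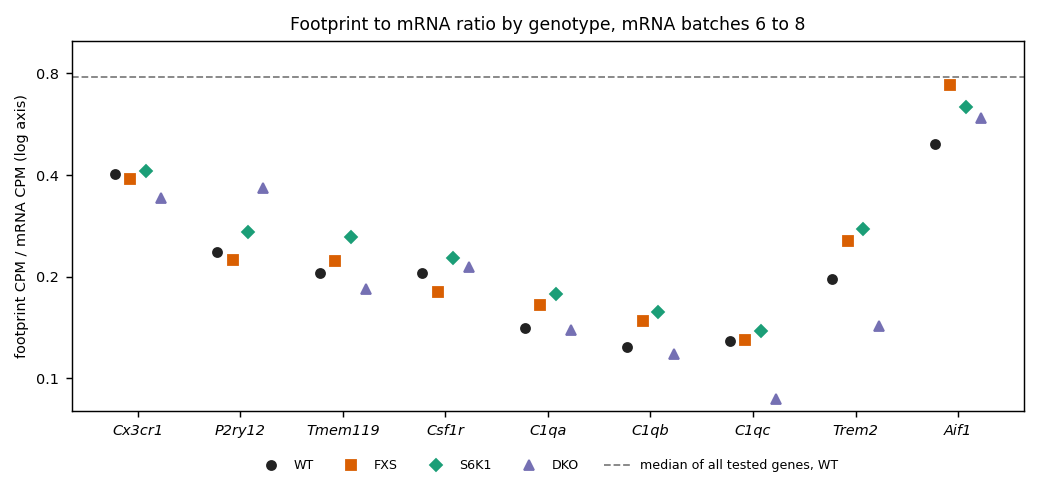
Ratio of mean footprint CPM to mean mRNA CPM (log axis) for the 9 genes, by genotype, with mRNA from batches 6 to 8. The dashed line is the WT median of all genes tested in both assays, 0.782. All points lie below it, with C1qa, C1qb and C1qc lowest and Aif1 highest.

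Other genes of microglial biology showed the batch pattern in part. Of 20 further homeostatic microglial genes, 15 fell in batch 5 and 0 rose, with a median log2 fold change of -1.31 over the 20, beside 0.02 over all genes tested. Over all genes tested, 24.4% fell and 21.9% rose, and the counts of this and the following lists stand beside those shares. Among the most abundant, Ctss, a lysosomal protease, had -1.89 ± 0.0687, and Selplg, a membrane ligand of selectins, -1.69 ± 0.103. Sall1, a transcription factor of microglial identity, had 0.03 ± 0.144 (adjusted p = 0.870). The transcription factors Irf8 and Spi1 of the same list, named after their values were seen, also did not pass, at 0.08 and -0.09. All 6 genes of the ligand list fell (median -0.65), among them Cx3cl1, which encodes fractalkine, at -1.01 ± 0.0760, Csf1 at -0.69 ± 0.105 and Il34 at -0.41 ± 0.0616. Cx3cl1 and Il34 are made mainly by neurons. In the TREM2 signalling list 4 of 7 tested genes fell, including the TREM2 ligand Apoe at -1.45 ± 0.0707 and the adaptor Tyrobp at -0.73 ± 0.124, while Inpp5d, a phosphatase of the pathway, was at -0.08 ± 0.0857. In the complement list 6 of 12 fell, and Csmd1, a membrane inhibitor of complement, was at -0.14 ± 0.0712 without passing. Of 10 tested genes of activated microglia 7 fell and 1 rose (Il1b at 0.89 ± 0.299), and of 8 of border macrophages 2 fell and 1 rose (F13a1 at 0.58 ± 0.221), the share that fell being near that of all genes. Neither rise held in every fit. Il1b was at 0.50 (adjusted p = 0.244) without S6K1 replicate 1 and at 0.88 (adjusted p = 0.0600) without DKO replicate 1. F13a1 did not pass in 7 of 20 alternatives, with an adjusted p of up to 0.392, without DKO replicate 1.

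These genes were also split by the location assigned to their finished product, without regard to where it is made or how it is exported. The split was chosen after the values were seen and is given as a description only. Of the 47 tested genes of the homeostatic, TREM2 signalling, complement, activated and border macrophage lists with a membrane, secreted or lysosomal product, 32 fell in batch 5 and 2 rose (Il1b, a secreted cytokine, and F13a1, a coagulation factor subunit), and the median log2 fold change was -0.97. Of the 10 assigned a nuclear or cytosolic product, 2 fell (Plcg2 and Vav1), 0 rose and 8 did not pass, with a median of -0.01. These 10 include Cbr2, at 0.08, whose product is a mitochondrial enzyme. Plcg2 did not pass without FXS replicate 1 (-0.47, adjusted p = 0.0574), nor did Vav1 without S6K1 replicate 1 (-0.39, adjusted p = 0.0740) or DKO replicate 1 (-0.42, adjusted p = 0.0708). The 8 members that fell encode membrane or secreted proteins, and Aif1 encodes a cytosolic one. Markers of other cell types were also called in batch 5, where 24.4% of all genes fell and 21.9% rose. All 8 endothelial markers fell (median -1.503), as did all 8 astrocyte markers (median -0.69), 4 of 6 pericyte, 4 of 5 oligodendrocyte precursor and 7 of 10 oligodendrocyte markers, of which 1 more rose. Of 8 neuronal markers 4 fell and 1 rose. Of 4 red cell and 2 blood leukocyte genes tested, edgeR called 0, and 0 were under an unadjusted p of 0.05. Summed levels were 27.2 to 46.5 CPM in batch 5 against 69.5 to 168 CPM in batches 6 to 8 for endothelium, 1185 to 1370 against 1947 to 2447 CPM for astrocytes, and 0.541 to 2.74 against 0.589 to 4.89 CPM for blood leukocytes. The part of these cell types in the result was not tested.

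**Figure D5:**
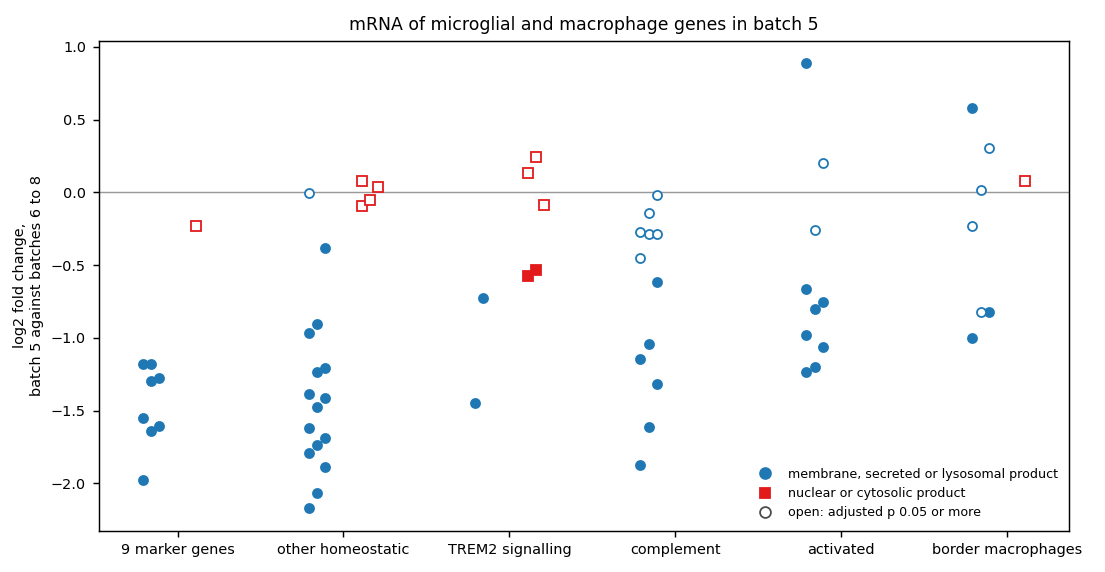
Log2 fold change of mRNA in batch 5 against batches 6 to 8 (vertical axis) for the 9 microglial genes and 5 further lists (horizontal axis). Each point is a gene, with open symbols for an adjusted p of 0.05 or more. Membrane, secreted or lysosomal products are circles, and nuclear or cytosolic products and Cbr2 are squares. Circles lie between -2.17 and 0.89 and squares between -0.57 and 0.25.

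For genotype, no gene of the homeostatic, TREM2 signalling, complement, activated or border macrophage lists was called in mRNA, footprints or translational efficiency. The single call in the ligand list was Cx3cl1 in DKO against WT. Its mRNA was 406, 791, 816 and 828.6 CPM in DKO and 373, 643, 704 and 636 CPM in WT in batches 5 to 8. It was higher in DKO in 4 of 4 batches, a pattern whose share over all genes was not counted. Its footprints were 893, 778 and 750 CPM in DKO and 1002, 1087, 909 and 1008 CPM in WT, with each DKO library below each WT library, a separation that 16.3% of all genes showed. The log2 fold change was 0.25 ± 0.0874 for mRNA (adjusted p = 0.0918), -0.27 ± 0.106 for footprints (adjusted p = 0.222) and -0.53 ± 0.149 for translational efficiency (adjusted p = 0.0417). The mRNA difference passed in 4 of 23 alternatives, with only DKO and WT fitted (adjusted p = 0.0330) and without S6K1 replicate 1 (0.0366), FXS replicate 4 (0.0492) or S6K1 replicate 4 (0.0495). For translational efficiency, over 37 alternative settings the direction was the same, the adjusted p ran from 0.0171 to 0.323 and 22 passed the test. Among the settings that did not pass were the model without batch and the fits without 14 single libraries. Csf1 mRNA in DKO was -0.32 ± 0.123 (adjusted p = 0.124) and Il34 0.12 ± 0.0736 (adjusted p = 0.350), neither of which passed.

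The mRNA level of each member was compared over the 16 libraries with the mean standardised level of the other 8. Pearson's r was 0.899 to 0.988 for 8 members and 0.468 for Aif1, and the points share batch 5. With batch means removed, the values were 0.458 (Trem2) to 0.824 (C1qa), with Aif1 at 0.513. The genes outside the list most like the members in mRNA were Bsg (r = 0.988), Prkcsh (0.987), Ntsr2 (0.985), Slc39a7 (0.984), H2-D1 (0.983), Prnp (0.983), Gpr162 (0.981) and Gas6 (0.981), none of which is in a list used here. With batch means removed they were Ntsr2 (0.876), Fam173b (0.876), H2-D1 (0.874), Acrbp (0.867), Prkcsh (0.857), Adcy6 (0.856), Axl (0.854) and Prr15 (0.847). Over the 15 footprint libraries with batch means removed, those most alike included Ifngr1 (0.926), Ctss (0.921), Selplg (0.918), Pros1 (0.898), Ggt5 (0.891), Fuca2 (0.891) and Cyp2j6 (0.872), of which Ctss and Selplg are in the homeostatic microglial list. In raw footprint values they were Cldn10 (0.935), Hyal1 (0.924), Selplg (0.923), Abhd3 (0.915), 4632428N05Rik (0.900), Tmbim6 (0.899), Ctsd (0.895) and Atp1b2 (0.890). These are descriptions over libraries that share batches and depth.

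In the authors' deposited tables of DKO against WT and FXS against WT, 0 of the 9 members had an adjusted p under 0.05 for mRNA, footprints or translational efficiency. The lowest adjusted p among members in the authors' deposited table was 0.257 for FXS mRNA, 0.316 for FXS footprints, 0.361 for FXS translational efficiency, and 0.499, 0.547 and 0.754 for the same measures in DKO. The authors' deposited table leaves the adjusted p empty for Cx3cr1, Tmem119, Trem2 and Aif1 in FXS mRNA and for Tmem119 and Trem2 in FXS footprints. The authors' deposited table gives Aif1 in FXS log2 fold changes of -0.36 for mRNA, 0.37 for footprints and 0.72 for translational efficiency.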

How the data were processed

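Ribosome footprints (15 libraries) and polyadenylated mRNA (16 libraries, TruSeq kit per the labels' protocols) were counted per gene by the authors, whose deposited tables hold raw whole-number counts over coding sequence for 20436 symbols. The submitters' processing notes name cutadapt 2.0, Bowtie2, TopHat2, RSEM and the build mm10 without their roles. Gene-length values and read filters are not given in the sources used here. The authors' deposited comparison tables give log2 fold changes with adjusted p-values, and their other columns (a mean of normalised values as signal and a test score, per the file headers) were not used for results.

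Counts were tested with edgeR 4.0.16 (R 4.3.3) after filterByExpr on genotype and TMM scaling. The quasi-likelihood F-test was robust, with batch and genotype as terms, all 4 genotypes sharing the spread, and p-values adjusted by Benjamini-Hochberg over all genes tested. A gene is called at an adjusted p under 0.05. Translational efficiency was the footprint contrast minus the mRNA contrast in one model of 31 libraries, batch nested in assay, on genes passing in both. Intervals are at 95%. The scripts were tested on simulated counts. CPM use TMM effective totals. Alternatives were RLE scaling, no filter, no batch term, only the compared genotypes, DESeq2 1.42.0, limma 3.58.1 voom and leaving out each library, and, chosen after seeing the data, leaving out the batch 5 mRNA libraries.

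The members and lists were chosen with earlier results of these data known. Named by rule were the 9 members, Fmr1 and Rps6kb1, called or most abundant genes of each other list, and the 8 genes most correlated with the members. Some genes that this rule names are not reported here. Batch numbers come from the labels. Same-batch libraries of different genotypes deviated together (median r 0.218 over 24 mRNA pairs, 21 above 0.1, against -0.123 over 72 other pairs; 0.248 over 20 footprint pairs, 16 above 0.1, against -0.0978 over 63). No 2 libraries of a genotype agreed within counting noise. Promoter sequences, gene positions and their build, GRCm38.p6, are from RefSeq tables.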

Additional observations from a re-analysis of the deposited data

Results flagged for a closer look

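Dixon's criterion was applied to 54 groups of libraries (each member, assay and genotype with 4 or 5 libraries). By chance it flags about 1 in 20 independent groups. The groups here share libraries, so that rate is not their background. By this criterion 8 values stood apart from the rest of their group. Of the 8, 7 are mRNA libraries of batch 5, and all 7 are low. These 7 restate the lower batch 5 levels given above, as each mRNA group holds 1 batch 5 library. They are Cx3cr1 in FXS replicate 1 (9.53 CPM), Csf1r in DKO replicate 1 (39.6 CPM), C1qa in FXS replicate 1 (20.7 CPM) and S6K1 replicate 1 (17.04 CPM), C1qb in FXS replicate 1 (25.0 CPM) and S6K1 replicate 1 (20.4 CPM), and C1qc in S6K1 replicate 1 (16.02 CPM). The eighth is a high footprint value, P2ry12 in FXS replicate 3 of batch 3, at 18.4 CPM.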

How the results depend on the processing

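The count of members called for genotype was 0 in all 18 comparisons and in all 484 alternative values over 38 settings, the added fit without the batch 5 mRNA libraries among them. In the fit with no replicate block (no batch term), 0 members were called in every genotype comparison, and Cx3cl1 translational efficiency in DKO was -0.58 with an adjusted p of 0.323. The block changed no other genotype call named here. The count of members with footprint batch differences moved from 5 to between 2 and 8 when single libraries were left out. Of 41 single-gene values, 32 kept their direction and their side of the threshold under every alternative. The others were Cx3cl1 translational efficiency and mRNA in DKO, and in batch 5 the mRNA of Il1b, F13a1, Plcg2 and Vav1 (lost calls), Csmd1, which passed without DKO replicate 1 or DKO replicate 4, Sall1, which ran from -0.13 to 0.11 and was below 0 without FXS replicate 1 (-0.13), FXS replicate 2 (-0.0015) or WT replicate 4 (-0.01), and Aif1, which passed only without WT replicate 1. Footprint counts as low as 19 limit what could be seen for Trem2.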
